A study of Rattus norvegicus with 19 samples.

Results

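The genes described here make, use and recycle glutathione and thioredoxin or remove superoxide and peroxides. Membership followed from the gene symbol, and the rule holds no measured value. A gene was a member when its symbol began with Gst followed by a class letter and a digit, or with Mgst, Gpx, Prdx, Txn, Sod followed by a digit, Nox or Cyb, or was Cat, Gclc, Gclm, Gss, Gsr, Nqo1, Hmox1, Hmox2, Nfe2l2 or Keap1. The rule found 81 genes on 94 probe sets, among 14217 genes and 31042 probe sets on the array. For each gene, the probe set of highest mean signal stood for the gene, and 70 of the 81 genes had only 1 probe set. The letters Cyb also took in 10 genes of the cytochrome b5 and b561 families, and the letters Nox took in Noxred1, an NADP-dependent oxidoreductase that is not a NADPH oxidase. Prdx1 could not be included, as its probe set also carries the symbol of a second gene.

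RNA was measured in the paraventricular nucleus (PVN) and the supraoptic nucleus (SON) of the hypothalamus, whose magnocellular neurones make vasopressin and oxytocin. The nuclei came from untreated male spontaneously hypertensive rats (SHR) and normotensive Wistar-Kyoto rats (WKY), inbred strains, labelled as 12 weeks old. The PVN was read on 5 arrays in each strain, and the SON on 5 in WKY and 4 in SHR. The study's text gives 5 pooled nuclei, read here as a pool behind each array, so p-values reflect the variation among pools rather than among rats. WKY is a separate inbred strain, so a strain difference cannot be told apart from a difference linked to blood pressure.

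Glutathione is a tripeptide built by glutamate-cysteine ligase (Gclc and Gclm) and glutathione synthetase (Gss). Peroxidases spend it on hydroperoxides, transferases couple it to reactive compounds, and glutathione reductase (Gsr) restores it with NADPH. Thioredoxins reduce protein disulfides and peroxiredoxins, and thioredoxin reductases recharge them, also with NADPH. Superoxide dismutases turn superoxide, which NADPH oxidases produce, into hydrogen peroxide, and catalase and the peroxidases remove that peroxide. The transcription factor Nfe2l2, held in check by Keap1, switches on many of these genes through a DNA element known as the antioxidant response element. Oxidant signalling in the PVN is a long-standing subject of hypertension research.

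Values below are log2 MAS 5.0 signals after each array was scaled to a common median and signals under 3.75 (log2 1.91) were raised to that floor. Probe sets entered a test where 1 group or more had a mean at or over the array-wide median of probe-set means, a log2 signal of 5.31 to 5.32. A gene was called at an adjusted p under 0.05 from limma, two-sided, adjusted over all probe sets tested. By this filter 68 of the 81 genes were tested in at least 1 comparison. The other 13 stayed under it, among them the oxidase genes Nox1, Nox4 and Noxo1, the gut peroxidase gene Gpx2 and several transferase genes of the alpha, mu, omega, pi and theta classes. Array medians before scaling ran from 35.9 to 46.5. Mean correlations of an array with the others of its group ran from 0.929 to 0.968, lowest in WKY SON arrays 3 (0.929) and 5 (0.945) and SHR PVN array 4 (0.947), and 0 arrays were identical.

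The dissections were checked against marker lists. The list of neuronal and magnocellular genes, with Avp as its strongest signal, had a mean of 9.99 in WKY PVN, 9.80 in SHR PVN and 9.81 in SHR SON, and it ran from 9.87 to 10.09 over the arrays of WKY SON. A list for the parvocellular neurones of the PVN also held transcription factors such as Sim1, the strongest signal of this list in WKY SON. Of its 4 tested genes, 3 were lower in the SON in each strain, and 1 was higher in the SON of WKY. Markers of other cells also differed between the nuclei, and their values are given beside the SON and PVN comparison.

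SHR and WKY differed in few of these genes, and every called difference was under 2-fold. Gstm1, a mu-class glutathione transferase, and Txndc5, a disulfide isomerase of the endoplasmic reticulum with thioredoxin domains, were higher in SHR in both nuclei. In the SON, the mu-class transferase gene Gstm7 and Cyb561 were lower in SHR. Cyb561 encodes the membrane cytochrome of secretory granules that passes electrons from ascorbate outside to restore the ascorbate inside. Enzymes in the granule use that ascorbate, among them the one that amidates vasopressin and oxytocin. In the PVN, 2 of 65 tested members were called (3.08%), against 2.36% of all 16104 probe sets tested and 1.69% of genes represented in the same way. In the SON, 4 of 66 were called (6.06%), against 3.62% of 16190 probe sets and 3.24% of genes. By direction, the background in the PVN was 1.14% with SHR higher and 1.22% with SHR lower, and in the SON 1.29% and 2.33%. The counts of members are too small to set them apart from this background. Both genes called in the PVN were among the 4 of the SON, with no share of all probe sets called in both nuclei to set beside this. The comparisons share no arrays, but the labels do not say whether the nuclei came from the same rats. They are therefore not taken as independent.

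The log2 signal of Gstm1 in the PVN was 9.05, 9.01, 9.50, 9.25 and 9.31 in the 5 WKY arrays and 10.01, 9.65, 9.83, 9.53 and 9.74 in the 5 SHR arrays. In the SON it was 9.11, 8.98, 9.06, 9.12 and 8.85 in WKY and 9.68, 9.64, 9.58 and 9.61 in SHR. Every SHR array lay above every WKY array of the same nucleus, narrowly in the PVN and with a wide gap in the SON. The difference was 0.53 in the PVN (standard error 0.12, 1.44-fold, adjusted p = 0.0315) and 0.60 in the SON (standard error 0.09, 1.52-fold, adjusted p = 0.00379). In the SON the call held without any single array, with adjusted p from 0.00626 to 0.0157. In the PVN it held without 3 of the 10 arrays and was lost without any of SHR arrays 2, 3 and 5 or WKY arrays 1, 2, 4 and 5, with differences from 0.47 to 0.60 and adjusted p up to 0.103.

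For Txndc5, the PVN arrays gave 8.09, 8.29, 8.43, 8.29 and 8.20 in WKY and 9.21, 8.83, 8.74, 8.54 and 8.66 in SHR. The SON arrays gave 8.60, 8.60, 8.29, 8.61 and 8.43 in WKY and 9.27, 8.99, 9.13 and 8.90 in SHR. Again no SHR array overlapped with WKY of the same nucleus, and in each nucleus SHR array 1 was the highest. Txndc5 differed by 0.54 in the PVN (standard error 0.13, 1.45-fold, adjusted p = 0.0339) and by 0.57 in the SON (standard error 0.11, 1.48-fold, adjusted p = 0.0163). The PVN call was lost without any of SHR arrays 2 and 3 or WKY arrays 1, 2, 4 and 5, with adjusted p up to 0.101. The SON call was lost without SHR array 3 (adjusted p = 0.0574), with differences from 0.50 to 0.62 over the arrays left out.

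Gstm7 had 10.29, 10.24, 10.53, 10.66 and 10.37 in WKY SON and 9.84, 10.05, 10.01 and 10 in SHR SON. In the PVN it had 9.65, 9.57, 10.03, 9.88 and 9.77 in WKY and 9.49, 9.31, 9.41, 9.07 and 9.44 in SHR. The SHR arrays lay below all WKY arrays of their nucleus in both cases. Gstm7 was 1.36-fold lower in the SON of SHR, at -0.44 with a standard error of 0.11 and an adjusted p of 0.0476. In the PVN the difference had the same size, -0.44 (standard error 0.12), without passing the test (adjusted p = 0.0761). The SON call was lost when any 1 of the 9 arrays was left out, with adjusted p from 0.0577 to 0.118, and after quantile normalisation (-0.30, adjusted p = 0.121).

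For Cyb561, signals in the SON were 8.66, 8.69, 8.59, 8.79 and 8.47 in WKY and 8.11, 7.98, 8.13 and 8.10 in SHR. The groups were well apart there. In the PVN the values were 8.82, 8.86, 9.09, 8.94 and 8.88 in WKY and 9.22, 8.57, 8.70, 8.40 and 8.48 in SHR. There, SHR array 1 lay above every WKY array and the other 4 SHR arrays lay below them. Cyb561 fell in the SON of SHR by 0.56 (standard error 0.10, 1.47-fold, adjusted p = 0.00753), and the call held without any single array, with adjusted p from 0.00767 to 0.0322. The PVN difference was -0.25 (standard error 0.14, adjusted p = 0.496), and without SHR array 1 it was -0.38 and passed the test (adjusted p = 0.0432).

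**Figure D1:**
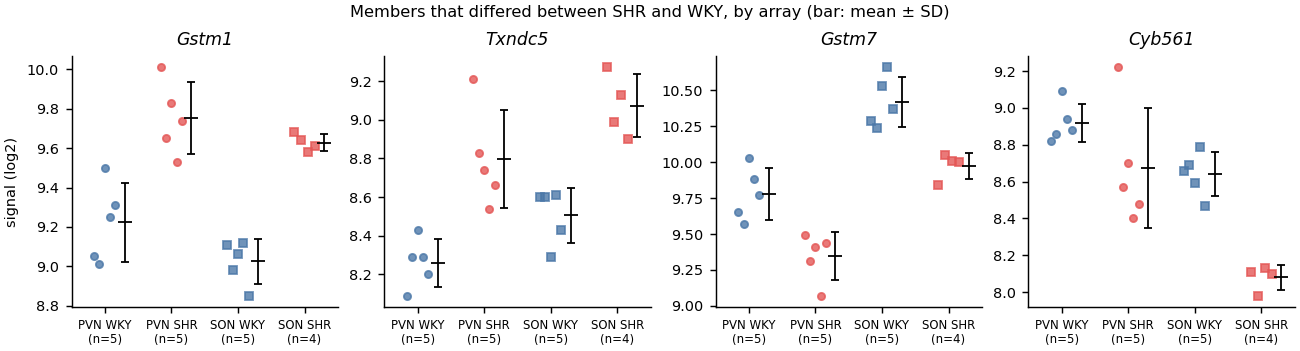
Log2 signal of Gstm1, Txndc5, Gstm7 and Cyb561 in each array, by nucleus and strain, with a bar at the group mean ± SD (5 arrays a group, 4 in SHR SON). Gstm1 and Txndc5 sit higher in SHR in both nuclei, while Gstm7 and Cyb561 sit lower in the SON of SHR, each axis starting near its lowest array.

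Txnrd1, the cytosolic thioredoxin reductase, was read by a pair of tested probe sets. Its probe set of lower mean gave 6.87, 6.84, 6.94, 6.56 and 6.97 in WKY SON and 6.58, 6.15, 6.36 and 6.31 in SHR SON, and differed by -0.49 with a standard error of 0.12 and an adjusted p of 0.0467. SHR array 1 overlapped with the lowest WKY array. The probe set that represents the gene gave 8.32, 8.64, 8.43, 8.57 and 8.46 in WKY and 8.30, 8.03, 8.16 and 8.06 in SHR, with no overlap. Its difference of -0.35 (standard error 0.10) did not pass the test (adjusted p = 0.0888), so Txnrd1 is not among the 4.

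The promoters of the genes called between strains are shown with that of Gstm5, a mu-class gene that differed between the nuclei. Gstm2, a mu-class gene that differed more between the nuclei (1.40 in WKY and 1.87 in SHR), is not shown. The sequences are the 250 bases before the transcription start in RefSeq (assembly GRCr8), from the reference rat and not from SHR or WKY. Capitals mark matches to TGACNNNGC, the core of the antioxidant response element, searched on both strands. The windows lie at chr2:198343384-198343633 (Gstm1, minus strand), chr2:198260320-198260569 (Gstm7, minus strand), chr17:26495217-26495466 (Txndc5, plus strand), chr10:91388437-91388686 (Cyb561, minus strand) and chr2:198219519-198219768 (Gstm5, plus strand).
Gstm1: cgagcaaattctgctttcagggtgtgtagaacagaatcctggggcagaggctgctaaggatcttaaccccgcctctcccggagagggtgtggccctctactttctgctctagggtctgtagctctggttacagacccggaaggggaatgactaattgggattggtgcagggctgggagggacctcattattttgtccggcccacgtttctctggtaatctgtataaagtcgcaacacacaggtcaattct
Gstm7: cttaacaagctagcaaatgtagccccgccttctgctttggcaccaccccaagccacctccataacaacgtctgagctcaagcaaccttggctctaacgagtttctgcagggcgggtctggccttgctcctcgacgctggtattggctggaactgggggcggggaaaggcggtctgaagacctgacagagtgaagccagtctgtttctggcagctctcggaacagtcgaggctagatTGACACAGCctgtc
Txndc5: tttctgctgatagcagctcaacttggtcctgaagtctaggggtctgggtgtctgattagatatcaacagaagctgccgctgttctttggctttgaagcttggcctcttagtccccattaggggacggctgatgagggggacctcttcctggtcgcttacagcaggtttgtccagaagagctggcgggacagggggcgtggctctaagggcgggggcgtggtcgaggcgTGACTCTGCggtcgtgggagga
Cyb561: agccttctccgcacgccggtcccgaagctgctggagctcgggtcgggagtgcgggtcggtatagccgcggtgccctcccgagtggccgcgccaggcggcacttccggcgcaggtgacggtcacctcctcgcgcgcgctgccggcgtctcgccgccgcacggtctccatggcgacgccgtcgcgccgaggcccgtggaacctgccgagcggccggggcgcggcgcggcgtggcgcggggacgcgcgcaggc
Gstm5: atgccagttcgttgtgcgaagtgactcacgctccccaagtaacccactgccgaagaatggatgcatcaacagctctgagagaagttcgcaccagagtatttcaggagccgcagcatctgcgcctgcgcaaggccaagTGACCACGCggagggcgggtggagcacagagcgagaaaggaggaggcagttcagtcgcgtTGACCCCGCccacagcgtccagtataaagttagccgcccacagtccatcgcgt

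Gstm7 and Txndc5 each held 1 match, whose first base lay 14 and 22 bases before the start. Gstm5 held 2 matches, 113 and 53 bases before the start. In the windows of Gstm1 and Cyb561 these letters were not found. A promoter in the table was matched for 71 of the 81 members, and 15 of their 82 promoters held the letters (18.3%), against 3373 of 33469 rat promoters (10.1%). Besides these genes, the matches lay before Cyb561d2, Cyb5r4, Gclm, Gpx2, Gsta3, Gstp1, Gstz1, Hmox2, Noxred1, Sod2, Txndc11 and Txnrd1. Gstm2 was not among the genes with a match. Gclm, Gstp1, Hmox2, Sod2 and Txnrd1 belong to the genes described below as standing for a role. A match describes these letters only, and no other motif was searched.

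The mu-class genes lie side by side on chromosome 2 in the order Gstm5, Gstm6l, Gstm7, Gstm6, Gstm3l1, Gstm3, Gstm2, Gstm1 and Gstm4. Within this cluster Gstm1 was higher and Gstm7 lower in SHR. Gstm4 differed by -0.46 in the PVN (standard error 0.12, adjusted p = 0.0697), without overlap between strains, and by -0.16 in the SON. Gstm5 differed by -0.27 and -0.08 in the same order. The PVN difference of Gstm4 passed with array weights, quantile normalisation, a stricter filter or values as deposited. It also passed without SHR PVN array 1 or WKY PVN array 2. Transcripts of this class are closely alike, and how far each probe set binds its neighbours' transcripts was not tested.

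Most other members differed little between strains. The median difference of the members was -0.09 in the PVN and -0.00 in the SON, against -0.04 in each nucleus for all probe sets tested. At an unadjusted p under 0.05 there were 14 of 65 members in the PVN (21.5%, against 13.5% of all probe sets) and 21 of 66 in the SON (31.8%, against 19.3%). In the SON, SHR arrays lay above all WKY arrays for 7 members, a share of 10.6% against 2.89% of all probe sets, and below them for 9, a share of 13.6% against 6.94%. In the PVN there were 2 such members above (background 1.85%) and 3 below (background 2.52%). In the SON, 3 of 15 markers of meninges and fibroblasts were called higher in SHR (median difference 0.51), and in the PVN 2 of 5 tested ependymal markers were, and their part in the strain differences was not tested. Among 10 tested microglia and macrophage markers, 1 was called higher in the SON of SHR (Mrc1, 0.61), with a median difference of 0.40. Sim1, a transcription factor of the developing PVN that was on the parvocellular list, was lower in SHR by 0.94 in the PVN (adjusted p = 2.74e-05) and by 0.97 in the SON (adjusted p = 0.00969). Among the neuronal and magnocellular markers 0 were called in either nucleus, with a median difference of -0.21 in each. Without SHR PVN array 1, Gstm7 (-0.47, adjusted p = 0.0394), Gstp1 (-0.46, adjusted p = 0.0484), Prdx6 (-0.37, adjusted p = 0.0356) and Cybrd1 (0.47, adjusted p = 0.0415) also passed in the PVN. So did Gstm4, Prdx2 and, as given above, Cyb561. In the SON, Cyb561d2 passed without WKY SON array 3 (-0.54, adjusted p = 0.0155).

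**Figure D2:**
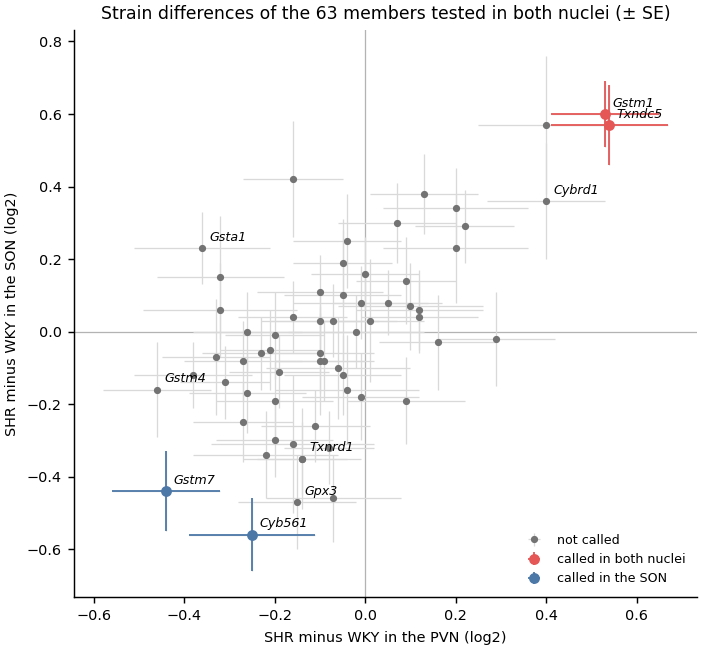
SHR minus WKY in the PVN (horizontal axis) and in the SON (vertical axis) for the 63 members tested in both, in log2 units, with bars of 1 standard error. Gstm1 and Txndc5, called in both, stand at the upper right, and Gstm7 and Cyb561, called in the SON, at the lower left. The other members are in grey. They include Mgst2 (0.40 and 0.57) and Cybrd1 (0.40 and 0.36) at the upper right and Gstm4 (-0.46 and -0.16) at the lower left.

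By role, 0 of the 4 genes of glutathione synthesis and reduction were called between strains. Gclc, the catalytic subunit of glutamate-cysteine ligase, differed by 0.05 in the PVN and 0.08 in the SON, and its modifier Gclm by -0.22 and -0.34. Glutathione synthetase (Gss) differed by -0.04 and -0.16. Glutathione reductase (Gsr), tested in the PVN through its WKY arrays only, differed by -0.44 there (adjusted p = 0.174).

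None of the 5 tested glutathione peroxidases was called. Gpx3, the secreted form, came nearest, with -0.47 in the SON (standard error 0.13, adjusted p = 0.0698). All 4 SHR SON arrays of Gpx3 lay below the WKY SON arrays. Gpx1, the cytosolic form, differed by -0.04 in the PVN and 0.25 in the SON, and Gpx4, which reduces lipid peroxides in membranes, by -0.23 and -0.06.

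The other transferases that stand for their class were not called. Gstp1 of the pi class differed by -0.38 in the PVN (adjusted p = 0.172) and -0.12 in the SON, and Gsta4 of the alpha class, which handles lipid aldehydes, by -0.10 and 0.11. The microsomal Mgst1 differed by -0.01 and 0.08. Of the other microsomal genes, Mgst2 differed by 0.40 in the PVN (adjusted p = 0.256) and 0.57 in the SON (adjusted p = 0.123). All SHR SON arrays of Mgst2 lay above the WKY SON arrays. Mgst3 differed by -0.26 and -0.17.

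Among the peroxiredoxins, which reduce peroxides with thioredoxin or glutathione, 0 of 5 were called. PVN differences lay between -0.27 and 0.12, those of the SON between -0.25 and 0.04, with Prdx2 the lowest in each. Prdx3 and Prdx5 of the mitochondria differed by -0.10 and -0.20 in the PVN. Prdx6 differed by -0.26 in the PVN and by -0.00 in the SON.

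Besides Txndc5, 0 of the other 15 thioredoxin-group genes passed the test in either nucleus by the probe set that represents them. The cytosolic thioredoxin Txn1 differed by -0.20 in the PVN and -0.01 in the SON, and the mitochondrial Txn2 by 0.12 and 0.06. Txnip, the protein that binds and inhibits thioredoxin, differed by -0.32 in the PVN (adjusted p = 0.311) and 0.15 in the SON. The mitochondrial reductase Txnrd2 differed by -0.32 and 0.06.

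Superoxide dismutases and catalase gave no call. The cytosolic Sod1 differed by -0.21 in the PVN and -0.05 in the SON, the mitochondrial Sod2 by -0.20 and -0.30, and catalase (Cat) by -0.07 and 0.03. The extracellular Sod3, tested in the SON only, differed by 0.34 (adjusted p = 0.413).

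Neither Nfe2l2 nor its inhibitor Keap1 was called. Nfe2l2 differed by 0.07 in the PVN and 0.30 in the SON (adjusted p = 0.169), and Keap1 by 0.16 and -0.03. Nqo1, a quinone reductase and standard target of Nfe2l2, differed by -0.02 and 0.00. The haem-degrading enzymes Hmox1 and Hmox2 differed by -0.33 and 0.09 in the PVN and by -0.07 and -0.19 in the SON.

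Of the NADPH oxidase genes, Cyba, the membrane subunit p22phox, differed by -0.16 in the PVN and 0.42 in the SON (adjusted p = 0.182). Cybb, the catalytic subunit of the phagocyte oxidase, was not tested on the probe set that represents it. On its other probe set it differed by 0.70 in the SON (standard error 0.19, adjusted p = 0.0696), tested there only through its SHR arrays, since the WKY mean of 5.28 was under the filter. The microglia and macrophage markers given above moved the same way in the SON, and their part in the Cyba and Cybb values was not tested. Nox4 had group means from 2.95 to 3.25, under the filter in all 4 groups, with 1 array at the floor in each of 3 groups. These levels give no reading of its strain difference.

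The SON and the PVN differed far more often than the strains did, and mostly with the SON higher. In WKY, 24 of 68 members were called (35.3%), against 26.9% of all 17095 probe sets and 28.3% of genes. Of these, 20 were higher in the SON (29.4%, against 13.2% of all probe sets) and 4 were lower (5.88%, against 13.7%). In SHR, 32 of 68 were called (47.1%), against 29.4% of all probe sets and 31% of genes, with 28 higher (41.2%, against 13.7%) and 4 lower (5.88%, against 15.7%). In all, 22 members were called in both strains, 2 in WKY alone and 10 in SHR alone, with no share of all probe sets to set beside these. The strains share no arrays, but both comparisons came from a single fit with a shared estimate of the spread. The median difference of the members was 0.19 in WKY and 0.25 in SHR, against -0.01 and -0.02 for all probe sets. The difference lay above 0 for 72.1% of members in WKY and 79.4% in SHR, against 48.8% and 48% of all probe sets. The number of calls in WKY stayed between 21 and 25 with each array left out, and that in SHR between 26 and 37. Of the 68 members, 5 passed the filter in some groups only (Noxred1, Cyb561d1, Gstm2, Gsr and Sod3). Those of them that were called are in these counts.

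Markers of other cell types moved with this comparison. All 15 markers of meninges and fibroblasts were called higher in the SON in both strains, with a median difference of 3.14 in WKY and 3.60 in SHR. Their summed signal ran from 669 to 819 in WKY PVN, 704 to 794 in SHR PVN, 3845 to 5933 in WKY SON and 4630 to 12340 in SHR SON. The highest was SHR SON array 1, and 2 of the 15 genes (Slc22a6 and Slc6a13) had an array at the floor. Of 8 tested mural cell markers, 3 were higher in the SON in WKY and 7 in SHR, and of 10 endothelial markers 5 and 4. All 5 tested ependymal markers were lower in the SON, with medians of -2.49 and -2.48. Of 10 tested astrocyte markers, 4 were higher in the SON in both strains, namely Aldh1l1 (2.73 in WKY and 2.40 in SHR), Gjb6 (1.49 and 1.70), Gfap (1.13 and 1.36) and Aqp4 (0.58 and 0.78), and Fgfr3 and Slc7a10 were lower. The median of the astrocyte list was 0.01 in WKY and 0.17 in SHR. Of 12 tested oligodendrocyte markers, 0 were higher and 1 lower in the SON of WKY (median -0.08), and 5 were higher and 0 lower in SHR (median 0.36), the strain with more members called. The part of these cells in the differences of the members was not tested, and in whole nuclei fewer cells of a type and less RNA per cell cannot be told apart. Without SHR SON array 1, 23 members were higher and 3 lower in the SON of SHR, and 25.8% of all probe sets were called, against 29.4% with all arrays. The counts were 22 and 4 without SHR PVN array 5, and 34 and 3 without SHR PVN array 1.

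**Figure D3:**
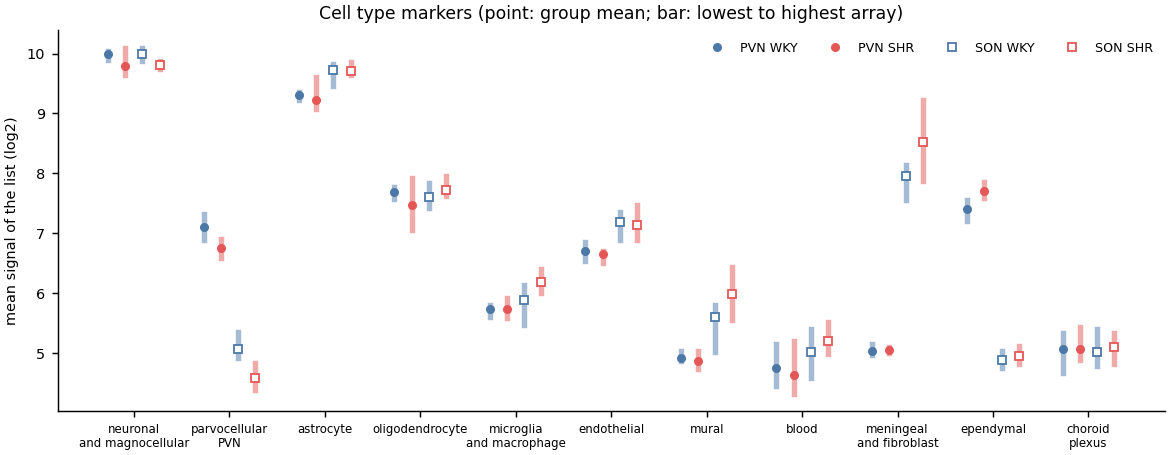
Mean log2 signal of 11 lists of cell type markers in the 4 groups, with points at the group means and bars from the lowest to the highest array. The meningeal and fibroblast list lies at 5.04 and 5.05 in the PVN and at 7.95 and 8.53 in the SON, while the neuronal list has group means of 9.80 and above.

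Among the glutathione transferases, 6 of 13 tested genes were higher in the SON in WKY and 9 in SHR, and 0 were lower. Gstm2 gave 4.82, 5.24, 4.80, 4.89 and 5.12 in WKY PVN and 6.33, 6.13, 6.49, 6.22 and 6.70 in WKY SON. In SHR it gave 3.79, 4.75, 4.38, 5.53 and 5.01 in the PVN and 7.03, 6.36, 6.76 and 6.11 in the SON. The nuclei were fully separate in both strains. The difference was 1.40 in WKY (standard error 0.24, 2.64-fold, adjusted p = 1.45e-04) and 1.87 in SHR (standard error 0.25, 3.66-fold, adjusted p = 9.34e-06). Gstm2 entered the test only through its SON arrays, since its PVN means were under the filter. Its difference is therefore given as a description, although the counts include it.

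Gstm5, the mu-class form known from brain and testis, was 10.57, 10.68, 10.96, 10.65 and 10.60 in WKY PVN and 11.55, 11.57, 11.66, 11.95 and 11.59 in WKY SON. In SHR the arrays gave 10.82, 10.42, 10.44, 10.07 and 10.35 in the PVN and 11.66, 11.59, 11.52 and 11.54 in the SON. The spread within each group was small beside the gap between the nuclei. Gstm5 was higher in the SON by 0.97 in WKY (standard error 0.12, 1.96-fold, adjusted p = 3.92e-06) and by 1.16 in SHR (standard error 0.13, 2.23-fold, adjusted p = 7.21e-07). These are the smallest adjusted p among the members in the 2 strains.

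Gstm7 was also higher in the SON, by 0.64 in WKY (adjusted p = 1.71e-04) and 0.63 in SHR (adjusted p = 3.34e-04). Gstm1, called between strains, did not pass between the nuclei, with -0.20 and -0.13. Gsta1 of the alpha class was higher in the SON of SHR by 0.79 (standard error 0.14, adjusted p = 2.09e-04) and differed by 0.21 in WKY (adjusted p = 0.257). Gstp1 rose by 0.48 in SHR (adjusted p = 0.00417), with 0.21 in WKY (adjusted p = 0.161), and Gsta4 by 0.51 in SHR (adjusted p = 0.00769), with 0.30 in WKY (adjusted p = 0.0928). The remaining calls in this class were Gstz1 in WKY, Gstm4 in SHR, and Gstt3 and Gstk1 in both. Of the microsomal transferases, Mgst1 fell by 0.41 in the SON of WKY (adjusted p = 0.0273), while 0 of 3 were called in SHR. The Mgst1 call was lost without WKY PVN array 3 or any of WKY SON arrays 1, 2 and 3, with adjusted p up to 0.0633.

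**Figure D4:**
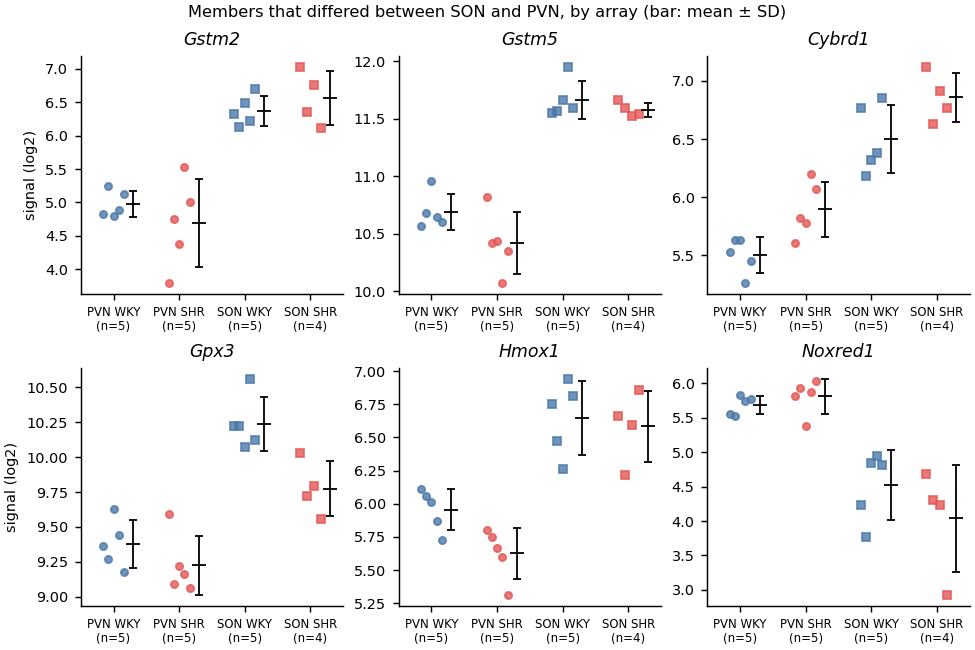
Log2 signal of 6 members in each array, by nucleus and strain, with a bar at the group mean ± SD (5 arrays a group, 4 in SHR SON). Gstm2, Gstm5, Cybrd1, Gpx3 and Hmox1 lie higher in the SON and Noxred1 lies lower, each on an axis of its own that does not start at 0.

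Of the 5 tested glutathione peroxidases, Gpx1, Gpx3, Gpx7 and Gpx8 were higher in the SON in both strains. Gpx3 gave 9.36, 9.27, 9.63, 9.44 and 9.18 in WKY PVN and 10.22, 10.22, 10.07, 10.56 and 10.12 in WKY SON. The SHR arrays gave 9.59, 9.09, 9.22, 9.16 and 9.06 in the PVN and 10.03, 9.72, 9.79 and 9.56 in the SON. The nuclei were apart in WKY, whereas in SHR the highest PVN array lay just above the lowest SON array. The difference was 0.86 in WKY (standard error 0.12, 1.82-fold, adjusted p = 2.35e-05) and 0.55 in SHR (standard error 0.13, 1.46-fold, adjusted p = 0.00339). Gpx1 was higher by 0.48 in WKY (adjusted p = 0.00475) and 0.78 in SHR (adjusted p = 9.68e-05). Gpx7 and Gpx8, peroxidases of the endoplasmic reticulum, were higher by 0.57 and 0.50 in WKY and by 0.63 and 0.74 in SHR. Gpx4 did not pass, with 0.05 and 0.22.

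In glutathione synthesis, only the modifier subunit Gclm was called, higher in the SON by 0.67 in WKY (adjusted p = 0.00169) and 0.55 in SHR (adjusted p = 0.0105). Its partner Gclc differed by -0.01 and 0.01, Gss by 0.34 and 0.23, and Gsr by -0.19 and -0.29. Gsr entered the test only through the PVN of WKY, and its SHR difference was -0.50 without SHR SON array 4 (adjusted p = 0.0378).

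The mitochondrial superoxide dismutase Sod2 was higher in the SON by 0.71 in WKY (standard error 0.11, 1.64-fold, adjusted p = 6.97e-05) and by 0.61 in SHR (standard error 0.12, 1.53-fold, adjusted p = 5.91e-04). Sod3, the extracellular form, was higher in the SON of SHR by 0.75 (adjusted p = 0.00477) and differed by 0.25 in WKY (adjusted p = 0.327). It entered the test only through its SON arrays, with PVN means of 5.07 and 4.91 under the filter. Its difference is therefore given as a description. Its SHR SON arrays gave 6.23, 5.47, 5.98 and 4.98. Array 1 was the highest and array 4 the lowest. They also were for the means of the meningeal, mural, endothelial, microglia and macrophage, and choroid plexus lists, but not for the other marker lists. The part of these cells in the Sod3 value was not tested. Sod1 and Cat were not called, with 0.06 and 0.02 in WKY and 0.23 and 0.13 in SHR.

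Of the peroxiredoxins, Prdx2 of the cytosol was higher in the SON by 0.42 in WKY (adjusted p = 0.00482) and 0.44 in SHR (adjusted p = 0.00516). After quantile normalisation these became 0.26 (adjusted p = 4.67e-04) and 0.16 (adjusted p = 0.0224). Prdx4 of the endoplasmic reticulum was higher by 0.59 and 0.51. Prdx6 passed in SHR with 0.36 (adjusted p = 0.0260), a call that was lost without any of SHR PVN arrays 2, 4 and 5 or SHR SON arrays 1 and 2 (adjusted p up to 0.0887). The mitochondrial forms Prdx3 and Prdx5 differed by 0.11 and 0.13 in WKY and by 0.24 and 0.14 in SHR, and did not pass.

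Few of the 16 thioredoxin-group genes differed between the nuclei. Txndc17 was higher and Txnrd3 lower in the SON in both strains, and Txn1 was higher in SHR. Txn1 differed by 0.35 in SHR (adjusted p = 0.0260), which became 0.10 after quantile normalisation (adjusted p = 0.243), and its call was lost without any of SHR PVN arrays 3 and 5 or SHR SON arrays 1 and 2 (adjusted p up to 0.0675). Txnrd3, a reductase best known from testis, fell by 0.61 in WKY (adjusted p = 0.00536) and by 0.46 in SHR (adjusted p = 0.0378). Txnrd1, Txnrd2, Txn2 and Txnip did not pass in either strain, with Txnip at -0.04 in WKY and 0.42 in SHR (adjusted p = 0.0584).

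Inducible enzymes were also higher in the SON. Hmox1 gave 6.11, 6.06, 6.01, 5.87 and 5.73 in WKY PVN and 6.75, 6.47, 6.26, 6.94 and 6.81 in WKY SON. In SHR it gave 5.80, 5.75, 5.67, 5.60 and 5.31 in the PVN and 6.66, 6.22, 6.59 and 6.86 in the SON. All SON arrays lay above all PVN arrays of the same strain. Hmox1 was higher by 0.69 in WKY (standard error 0.14, 1.61-fold, adjusted p = 8.67e-04) and by 0.95 in SHR (standard error 0.15, 1.94-fold, adjusted p = 5.14e-05). Nqo1 was higher by 0.48 in WKY (adjusted p = 0.00800) and by 0.50 in SHR (adjusted p = 0.00788). Nfe2l2 itself passed in SHR with 0.37 (adjusted p = 0.0317), and that call was lost without any of SHR PVN arrays 2, 3, 4 and 5 or SHR SON arrays 1 and 3 (adjusted p up to 0.113). Keap1 and Hmox2 were not called.

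Of the oxidase genes, Cyba was higher in the SON of SHR by 0.56 (standard error 0.14, adjusted p = 0.00485) and differed by -0.03 in WKY. The second Cybb probe set was higher in the SON by 1.47 in WKY (adjusted p = 8.87e-05) and 1.76 in SHR (adjusted p = 2.05e-05). It entered the test only through the SON of SHR, with means of 3.81 and 5.28 in the PVN and SON of WKY, both under the filter, 4.21 in SHR PVN and 5.97 in SHR SON. Its difference is therefore given as a description. The Cybb probe set of highest mean stayed under the filter, with 5.04 in WKY SON and 5.19 in SHR SON. Cybb and Cyba belong to the oxidase of phagocytes, and of 10 tested microglia and macrophage markers 1 was higher and 1 lower in the SON in WKY, and 4 were higher in SHR. The part of these cells in the Cyba and Cybb values was not tested.

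Noxred1 fell the most in the SON among the 68 tested members. It gave 5.55, 5.53, 5.83, 5.74 and 5.77 in WKY PVN and 4.23, 3.77, 4.85, 4.95 and 4.81 in WKY SON. In SHR it gave 5.82, 5.93, 5.38, 5.88 and 6.04 in the PVN and 4.69, 4.31, 4.23 and 2.92 in the SON. The SON arrays were all lower and spread more widely. It fell by 1.16 in WKY (standard error 0.26, 2.24-fold, adjusted p = 0.00205) and by 1.77 in SHR (standard error 0.27, 3.42-fold, adjusted p = 5.12e-05). Noxred1 entered the test only through its PVN arrays, so its difference is given as a description.

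In the cytochrome group, Cybrd1, a plasma membrane reductase of ferric iron that uses ascorbate, had 5.53, 5.63, 5.63, 5.26 and 5.45 in WKY PVN and 6.77, 6.18, 6.32, 6.38 and 6.85 in WKY SON. In SHR it had 5.61, 5.82, 5.78, 6.20 and 6.07 in the PVN and 7.12, 6.63, 6.91 and 6.77 in the SON. No array of the PVN reached the SON of its strain. The rise was 1.00 in WKY (standard error 0.14, 2.00-fold, adjusted p = 1.93e-05) and 0.96 in SHR (standard error 0.15, 1.95-fold, adjusted p = 5.67e-05). Cyb561d2, of the Cyb561 family, was higher by 0.80 in WKY (adjusted p = 1.88e-04) and by 0.41 in SHR (adjusted p = 0.0388), and the SHR call was lost without any of SHR PVN arrays 3, 4 and 5 or SHR SON arrays 1, 3 and 4 (adjusted p up to 0.0975). Cyb5a was higher by 0.51 in each strain, and Cyb5r2 was lower by 0.28 in WKY and 0.52 in SHR. Cyb561 fell in the SON of SHR by 0.59 (adjusted p = 0.00164) and differed by -0.28 in WKY (adjusted p = 0.0950). Besides Gsr, 7 members described above passed between the nuclei of SHR with 1 array left out. They were Prdx3, Sod1, Txndc5 and Txnip without SHR PVN array 1, Hmox2 without SHR PVN array 3, Keap1 and Mgst1 without SHR PVN array 4, and Txnip also without SHR SON array 2. In WKY, Txnrd1 passed without WKY SON array 1.

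**Figure D5:**
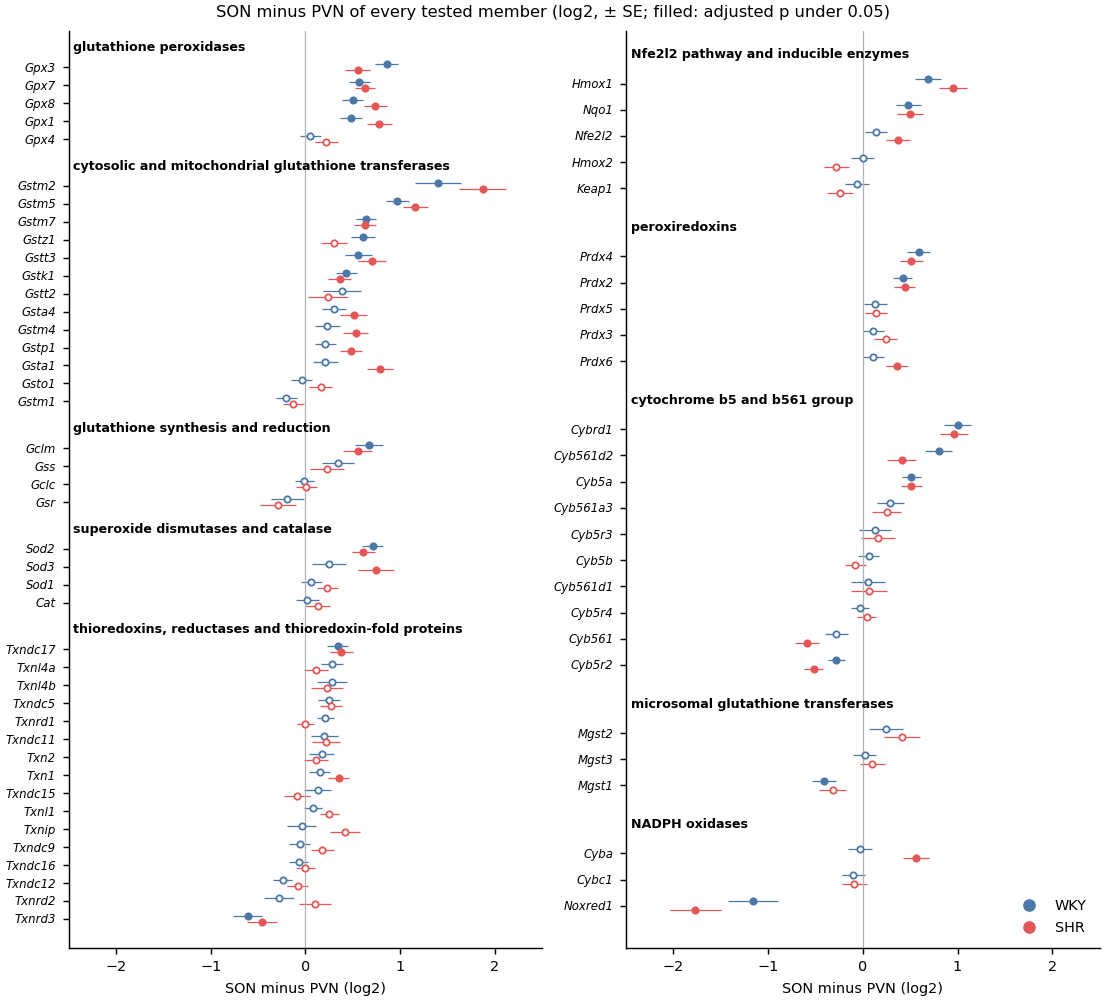
SON minus PVN in log2 units for the 68 tested members, ordered by role, in WKY (blue) and SHR (red), with bars of 1 standard error and filled points for adjusted p under 0.05. Noxred1 is placed with the NADPH oxidases by its symbol only. Filled points lie to the right of 0 for 4 of 5 glutathione peroxidases in both strains and for 6 and 9 of 13 transferases, while most points of the thioredoxin group are open and near 0.

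Whether a strain difference depended on the nucleus was tested in a model of all 4 groups. Of 68 members, 0 were called, against 0.0819% of all 17095 probe sets, and 2 had an unadjusted p under 0.05 (2.94%, against 6.85%). These were Gsta1, whose strain difference was 0.59 higher in the SON than in the PVN (standard error 0.19), and Cyba, with 0.58 (standard error 0.19), both at an adjusted p of 0.538. The calls seen in SHR alone for Gsta1, Cyba, Sod3 and Gstp1 are therefore not shown to differ from WKY. For Gstm1, Txndc5, Gstm7 and Cyb561 the SON value of the strain difference exceeded the PVN value by 0.07, 0.03, -0.01 and -0.31, with standard errors from 0.15 to 0.18.

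Genes around these systems were described with lists of NADPH supply, glutathione turnover, glutaredoxins, selenoproteins, partners and targets of Nfe2l2, oxidase partners and other antioxidants. Between strains, 0 tested genes of the 7 lists were called in the PVN and 1 in the SON. That gene was Scly, the lyase that frees selenium from selenocysteine, at a mean of 6.71 in WKY SON and 6.20 in SHR SON, or -0.51 between them (standard error 0.11, adjusted p = 0.0233). Between the nuclei, 3 of 14 tested genes of the glutaredoxin list were higher in the SON in WKY and 2 in SHR, and 0 were lower. Of 12 NADPH supply genes, 1 was higher and 1 lower in WKY, and 3 were higher and 1 lower in SHR. Of 19 genes of glutathione turnover and cysteine supply, 3 were higher and 2 lower in WKY, and 6 were higher and 2 lower in SHR. Of 17 selenoprotein genes, 4 were higher in each strain and 1 lower in WKY. Among all probe sets, 13.2% were higher and 13.7% lower in WKY, and 13.7% and 15.7% in SHR. The counts of these lists are too small to set them apart from this background. The medians of the 7 lists lay between 0.04 and 0.19 in WKY and between -0.06 and 0.23 in SHR.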

How the data were processed

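Total RNA of dissected nuclei, amplified linearly and labelled with biotin, was hybridised to Affymetrix Rat Genome 230 2.0 arrays. The authors obtained the deposited intensity values with MAS 5.0, which gives linear values scaled array by array, and the GeneSpring normalisation and present calls were not used here. Arrays were grouped by their labels, and 19 arrays were used. Each array was scaled to a common median, a floor was put at the 10th percentile (3.75), and log2 was taken of the deposited signals. Arrays had 8.33% to 10.6% of probe sets at this floor. Symbols came from the platform annotation, updated through Entrez numbers to GRCr8 (20826 probe sets with 1 symbol, 436 with several, 9780 with none, 57 controls left out). 4 of the 81 representing probe sets end in _x_at, _s_at or _a_at and can bind several transcripts.

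Strains were compared separately in the PVN and the SON, and the nuclei within each strain and the interaction in a fit of all arrays, with limma 3.58.1 in R 4.3.3 (lmFit, eBayes, Benjamini-Hochberg over all probe sets tested). The number of arrays limits precision. Named members were those called between strains on any probe set, the 8 called members with the largest difference between nuclei in each strain, and genes that stand for a role. Other members named were chosen after their values were seen. The members and lists were chosen with earlier results of these data known. Alternatives covered scaling, filter, floor, moderation, array weights, arrays in the fit, a replicate block, the methods' t-test, the choice of probe set and each array left out. The procedure was tested on simulated data. Promoters came from RefSeq, and plots were made in Python 3.11.15 (matplotlib 3.10.9). The fifth SHR SON array was not analysed here.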

Additional observations from a re-analysis of the deposited data

Results flagged for a closer look

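In 164 groups of 4 or 5 arrays over 41 named genes, 9 held an array far from the others by Dixon's test at the 95% level, where chance gives about 1 in 20. In the SON of SHR, Cyb561 was 7.98 in array 2, against 8.10 to 8.13 in the other arrays. In the PVN of WKY, Cybb lay at the floor of 1.91 in array 2, against 4.67 to 4.96, on the probe set that was not tested. Gstm5 was 10.96 in WKY PVN array 3, against 10.57 to 10.68, and 11.95 in WKY SON array 4, against 11.55 to 11.66. Nqo1 was 8.23 in WKY PVN array 3, against 7.62 to 7.71. In the PVN of SHR, array 1 gave 7.69 for Nfe2l2, against 7.07 to 7.24, and 9.38 for Prdx6, against 8.74 to 8.93. Array 4 of the same group gave 7.50 for Keap1, against 7.96 to 8.09, and 7.99 for Txnrd1, against 8.16 to 8.21.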

How the results depend on the processing

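In the PVN, the 2 members called between strains became 6 with array weights, 5 with values as deposited, 4 with a stricter filter and 0 with no filter, with the replicate block or with the methods' t-test, and 0 to 9 with single arrays left out (9 without SHR array 1). In the SON, the 4 called became 10 with a stricter filter, 9 with array weights, 8 with quantile normalisation or with trend and robust moderation, 7 with values as deposited, and 2 with no filter, the replicate block or the methods' t-test, and 2 to 4 with single arrays left out (2 without SHR array 3). Gstm1 and Cyb561 passed in the SON in all 19 alternatives run, Txndc5 in 15 and Gstm7 in 5. In the PVN, Gstm1 passed in 10 of 20 and Txndc5 in 11 of 20. The split in the SON, 2 higher and 2 lower, was 6 and 2 after quantile normalisation and 5 and 2 as deposited. In the PVN, 2 and 0 became 2 and 1, and 2 and 3. Between the nuclei, calls in SHR went from 32 to 15 with the methods' t-test. The interaction gave 1 call (Gsta1, 0.61) after quantile normalisation, and 0 with single arrays left out. Of 3977 values of named members under alternatives, 3813 kept their side of the threshold, 83 lost a call, 81 gained a call and 0 called values reversed. Some values that were not called in the main fit changed sign. Sod1, for example, went from 0.23 to as low as -0.12 between the nuclei of SHR. The causes were not tested.

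Replicate numbers were not taken to pair the arrays, as the labels name no shared source and not every pair correlated over 0.1. Arrays of the same number correlated at -0.14 to 0.0384 between strains in the PVN, -0.0194 to 0.063 in the SON, and -0.0321 to -0.005 between the nuclei of WKY. Between the nuclei of SHR they correlated at 0.159, 0.0587, 0.0328 and 0.0954, and 7 of 8 arrays matched their own number best, a hint from the data. There the block lost the calls of Cyb561d2 (adjusted p = 0.0552) and Txn1 (adjusted p = 0.0537) and gained that of Txnip (adjusted p = 0.0482). The replicate block left 24 calls between the nuclei in WKY, 30 in SHR and 0 in the interaction. Members near background limit these results, with 13 of 81 never tested.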

Other observations

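Some genes of the surrounding lists differed between the nuclei by more than most members, and were chosen after their values were seen. Slc7a11, the transporter that brings in cystine for glutathione synthesis, was higher in the SON by 1.14 in WKY (standard error 0.17, adjusted p = 3.15e-05) and 1.23 in SHR (standard error 0.18, adjusted p = 2.35e-05), and its partner Slc3a2 by 0.54 and 0.46. Pgd, which makes NADPH in the pentose phosphate pathway, was higher by 0.71 and 0.75. Ceruloplasmin (Cp), a copper ferroxidase, was higher by 1.41 and 1.43, aldehyde oxidase (Aox1) by 1.09 and 1.57, and the transcription factor Maf by 0.95 and 1.31. Idh2, the mitochondrial isocitrate dehydrogenase that makes NADPH, was lower by 0.44 and 0.56, and the aldehyde reductase Akr7a3 by 0.83 and 0.74. The part of meningeal and vascular cells, whose markers were higher in the SON, was not tested.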
